A study of Homo sapiens with 20 samples.

Results

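The late response of A549 cells to extracellular ATP (eATP) was described by comparing cells given 0.5 mM ATP for 6 hours with untreated cells. The comparison held 8 libraries, 4 eATP 6 h and 4 control, of the 20 in the series. All genes with at least 0.1 FPKM (fragments scaled to transcript length and library size) in at least 4 of these 8 libraries were members, which gave 17605 of the 58825 genes listed. A549 is a human lung adenocarcinoma line, and cells of all groups were kept in DMEM with serum. The control cells received no agent and carry no collection time, so 1 control group served both treatment times. The other libraries came from cells given eATP for 2 hours or 10 ng/mL TGF-β, a cytokine that induces epithelial mesenchymal transition (EMT), for 2 or 6 hours, with 4 libraries each. The study asked which EMT-related genes eATP induces. Whether each library came from its own culture is not stated, so the p-values rest on variation between libraries that could be technical only.

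ATP outside the cell acts on P2X channels and on P2Y receptors coupled to G proteins, and surface enzymes degrade it to adenosine, which has receptors of its own. In epithelial cells P2Y signalling raises calcium and can release membrane-bound ligands of the EGF receptor, which feeds the MAP kinase cascade. That cascade induces AP-1, a dimer of Fos and Jun family proteins that binds DNA, and AP-1 is a known activator of matrix metalloproteinase and laminin genes. Immediate early genes answer within minutes and are then shut off by feedback, whereas secreted and structural products of the cascade accumulate over hours.

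The promoters of 4 genes that were higher after 6 hours are shown because they hold letter strings matching the AP-1 site or, in AREG, the cAMP response element. The sequences are the 250 bases before a transcription start in RefSeq (GRCh38.p14), written 5′ to 3′ along the gene. Capitals mark the AP-1 site, TGAGTCA or TGACTCA, which are each other's reverse complement, or the palindromic cAMP response element (CRE), TGACGTCA. LAMA3 and LAMB3 encode the α and β chains of the laminin that anchors epithelial cells to the basement membrane, IL1A encodes the cytokine interleukin 1 alpha, and AREG encodes amphiregulin, an EGF receptor ligand.
LAMA3: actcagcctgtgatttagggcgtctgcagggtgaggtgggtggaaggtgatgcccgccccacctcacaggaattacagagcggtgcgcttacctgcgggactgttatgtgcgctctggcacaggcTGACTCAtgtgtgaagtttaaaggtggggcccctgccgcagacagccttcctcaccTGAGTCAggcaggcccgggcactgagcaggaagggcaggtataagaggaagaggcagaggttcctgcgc
LAMB3: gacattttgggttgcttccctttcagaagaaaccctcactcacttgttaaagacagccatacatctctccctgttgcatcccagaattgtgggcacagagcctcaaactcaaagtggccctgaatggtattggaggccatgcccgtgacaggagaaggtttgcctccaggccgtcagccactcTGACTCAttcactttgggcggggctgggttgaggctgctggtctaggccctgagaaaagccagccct
IL1A: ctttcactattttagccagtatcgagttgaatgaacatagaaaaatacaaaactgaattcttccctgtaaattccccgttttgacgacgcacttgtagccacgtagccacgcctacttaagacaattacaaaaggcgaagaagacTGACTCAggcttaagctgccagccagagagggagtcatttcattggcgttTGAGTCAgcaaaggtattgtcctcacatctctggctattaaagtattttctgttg
AREG: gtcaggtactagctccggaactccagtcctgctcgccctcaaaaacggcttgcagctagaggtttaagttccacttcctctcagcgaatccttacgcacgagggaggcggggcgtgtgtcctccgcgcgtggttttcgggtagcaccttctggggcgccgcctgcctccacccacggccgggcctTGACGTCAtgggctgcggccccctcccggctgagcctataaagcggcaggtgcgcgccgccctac
The LAMA3 stretch lies at chr18:23872770-23873019 on the plus strand, and its AP-1 sites begin 125 and 69 bases before the start. The LAMB3 stretch, 1 of 3 starts in the table, lies at chr1:209651375-209651624 on the minus strand, with its AP-1 site 67 bases before the start. The IL1A stretch, 1 of 2 starts, lies at chr2:112784401-112784650 on the minus strand, with sites 105 and 55 bases before the start. The AREG stretch lies at chr4:74444886-74445135 on the plus strand, with its CRE 65 bases before the start. A matching letter string is a description of the DNA and not a measured binding site.

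RNA of epithelial keratin genes was abundant in every library, and 8 of 10 epithelial markers were measured, among them KRT8 with 393.8 FPKM in eATP 6 h libraries and 396.8 FPKM in controls (means). Of the alveolar type II markers, 3 of 10 were measured, and 6 stayed under 0.1 FPKM in all 8 libraries, so the line carried little of the surfactant programme. Markers of immune cells (3 of 11 measured), endothelial cells (1 of 8) and fibroblasts (3 of 10) had low summed levels. These sums were 5.54 to 7.61 FPKM with eATP and 6.64 to 8.39 FPKM without it for the immune list, 0.326 to 0.429 and 0.153 to 0.237 FPKM for the endothelial list, and 1.31 to 2.03 and 1.82 to 2.37 FPKM for the fibroblast list. The endothelial sums did not overlap between the groups, and their part in the results was not tested. CDH5 was the 1 measured member (log2 fold change 1.18, edgeR adjusted p = 0.0883). Library totals were 72156747 to 75008012 counts for eATP 6 h and 65609263 to 74242362 counts for control.

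After 6 hours of eATP, 392 genes were higher and 267 lower than in untreated cells. These are 2.23% and 1.52% of the genes tested, 3.74% together, called with edgeR's quasi-likelihood test of the deposited counts. The test was two-sided, all 20 libraries were in the model, and a call needed a p under 0.05 after Benjamini-Hochberg adjustment. The median log2 fold change was 0.56 among higher genes and -0.65 among lower genes. A log2 fold change of at least 1 in size was reached by 72 higher and 56 lower genes. All 4 eATP libraries lay above all 4 controls for 382 of the higher genes and below them for 262 of the lower genes, where 5.55% and 6.82% of all genes tested are apart in these ways. Both counts depend on which libraries estimate the spread. Without 1 TGF-β 2 h library that lay far from its group and enters only that estimate, 618 genes were higher and 439 lower. Without control replicate 2 there were 249 higher genes, and 171 genes were lower when control replicate 1 was left out and 168 when eATP 6 h replicate 4 was. In a bulk sample, less RNA per cell and fewer cells of a type cannot be told apart.

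**Figure D1:**
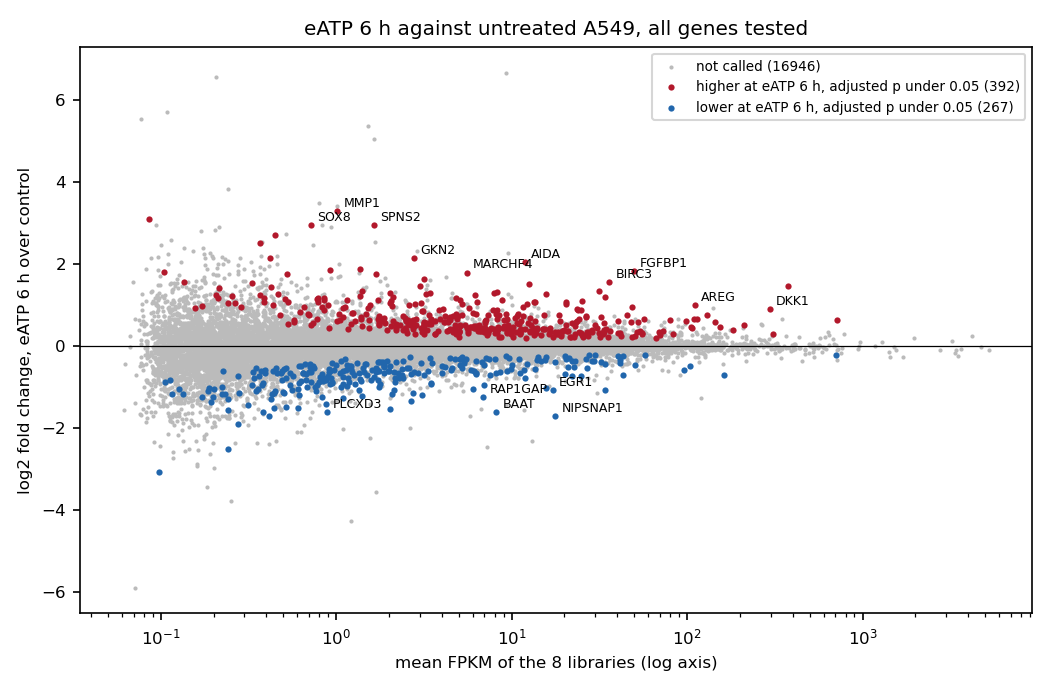
Log2 fold change of eATP 6 h over control (vertical axis) against the mean FPKM of the 8 libraries (horizontal log axis), 1 point per gene tested. Red points are the 392 higher genes and blue points the 267 lower genes, and grey points were not called.

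The called genes differed in kind between the directions. Protein-coding genes made up 95.7% of the higher genes (375 of 392) and 83.1% of the lower genes (222 of 267), against 73.3% of all genes tested. Long intergenic and antisense RNAs made up 3.32% of the higher and 12% of the lower genes, against 10.5% of all tested. The median level was 6.33 FPKM for higher genes and 1.5 FPKM for lower genes, against 2.48 FPKM for all. Detection moved with level: 2.44% of genes under 1 FPKM were called and 4.81% of those between 10 and 100 FPKM. Fold change had almost no relation to transcript length (r = 0.0147) or GC content (r = 0.0191) across 11477 genes of at least 1 FPKM, which are not independent replicates.

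Interstitial collagenase and stromelysins, enzymes that digest extracellular matrix, had some of the largest rises. MMP1, on chromosome 11 (GRCh38, 102789920 to 102798160, minus strand), had 2.06, 1.93, 1.39 and 2 FPKM in eATP 6 h libraries, against 0.232, 0.181, 0.243 and 0.0959 FPKM in controls. The groups did not overlap, and the mean was 9.82 times that of controls (log2 fold change 3.30 ± 0.27 SE, edgeR adjusted p = 4.30e-07). Its neighbour MMP10 had 2.37, 2.35, 1.84 and 2.02 FPKM with eATP and 0.529, 0.521, 0.507 and 0.786 FPKM without it. MMP10 rose by a log2 fold change of 1.89 ± 0.154 (edgeR adjusted p = 4.01e-07). MMP3, in the same cluster, is a lower transcript, with 127, 119, 111 and 150 counts in eATP libraries and 0, 19, 15 and 39 counts in controls (log2 fold change 2.70 ± 0.553, edgeR adjusted p = 0.00817). The MMP3 call was lost when only the compared groups were in the fit. The pseudogene WTAPP1 overlaps these 3 genes on the opposite strand. The kit was stranded, but no source read here states that counting used strand. In the list of metalloproteinases, their inhibitors and plasminogen activators, 7 of 24 tested members rose and 1 fell, with a median log2 fold change of 0.22 against -0.0033 over all genes. Called members were 33.3% of this list, against 3.74% of all genes. MMP7 (0.63), the inhibitor TIMP3 (0.97, adjusted p = 0.0483), and PLAU (0.24) also rose, and the membrane-type enzyme MMP24 fell by 0.52. TIMP3 lost its call in each of the 8 fits that left out 1 library of the comparison, and PLAU in 6 of them.

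Genes with the next largest rises encode secreted, structural and regulatory proteins. SPNS2, a sphingosine-1-phosphate exporter listed in the table under the clone name AC118754, had 3.11, 2.81, 3.03 and 2.7 FPKM in eATP 6 h libraries, against 0.398, 0.314, 0.372 and 0.431 FPKM in controls (log2 fold change 2.96 ± 0.267, edgeR adjusted p = 1.53e-06). The transcription factor gene SOX8 had 1.2, 1.26, 1.33 and 1.3 FPKM with eATP and 0.155, 0.199, 0.203 and 0.108 FPKM without it (2.96 ± 0.205, edgeR adjusted p = 1.41e-07). For both genes the libraries of each group lay close together and far from those of the other group. FGFBP1, which carries fibroblast growth factors out of the matrix, was much more abundant, with 78, 70.2, 89.8 and 70 FPKM in eATP libraries and 22.5, 21.4, 24.7 and 19.8 FPKM in controls (1.83 ± 0.129). GKN2, a gastrokine of the stomach mucosa, had 5.28, 4.44, 4.54 and 3.82 FPKM with eATP, against 0.898, 0.921, 1.27 and 1.07 FPKM (2.14 ± 0.295). Log2 fold changes of the other rises were 1.86 for the stress keratin KRT6A, 1.79 for the membrane ubiquitin ligase MARCHF4 (listed as MARCH4) and 1.63 for IGFL1. BIRC3, an inhibitor of apoptosis and NF-κB target, had 50.4 to 56 FPKM with eATP and 13.4 to 20.9 FPKM in controls (1.55 ± 0.254, edgeR adjusted p = 0.00136).

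**Figure D2:**
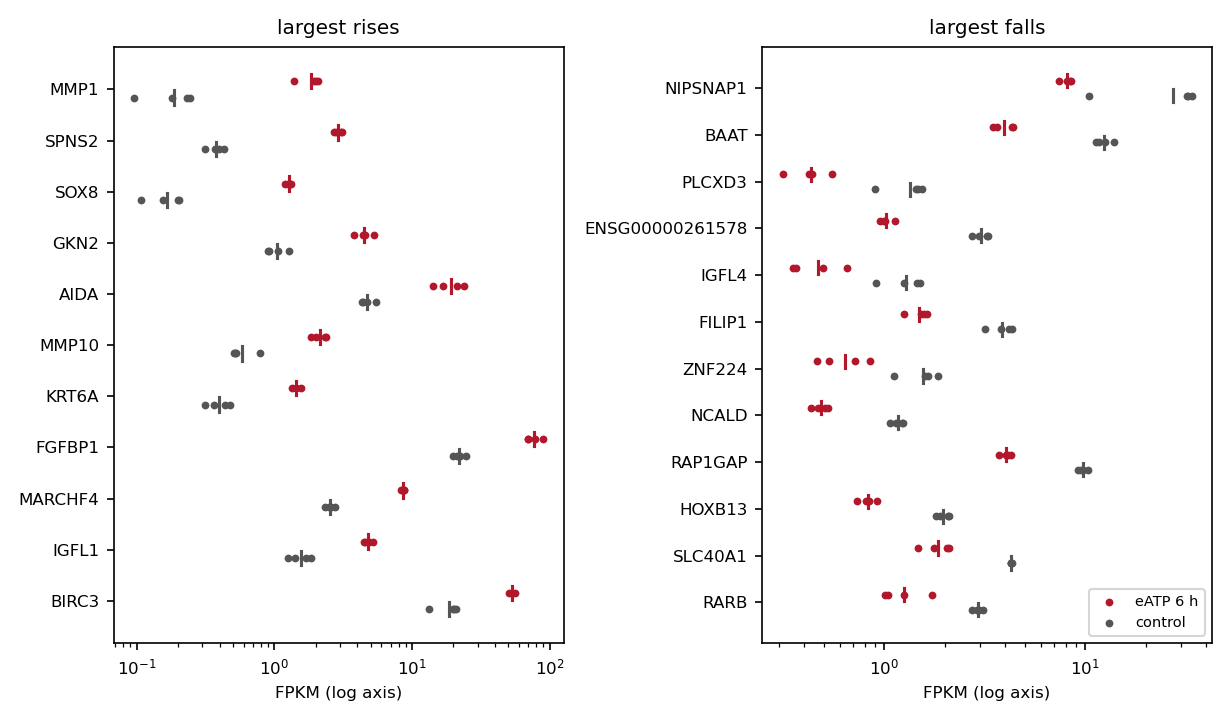
FPKM of each library (points, horizontal log axis) and group mean (bars) for 11 genes with the largest rises and 12 with the largest falls. Red points are eATP 6 h and lie above the grey control points of the same gene, and in all 23 genes the groups do not overlap, as the choice of these genes required.

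Among the falls, BAAT, which conjugates bile acids, had 3.48, 4.37, 3.65 and 4.31 FPKM in eATP 6 h libraries, against 11.7, 14, 11.4 and 12.6 FPKM in controls. Its mean with eATP was 0.318 times that without it (log2 fold change -1.62 ± 0.119, edgeR adjusted p = 2.00e-07). RAP1GAP, which switches off the small GTPase Rap, fell to 3.71, 4.28, 4.03 and 4.12 FPKM, against 9.8, 9.24, 9.51 and 10.4 FPKM in controls (-1.24 ± 0.095, edgeR adjusted p = 2.18e-07). The iron exporter gene SLC40A1 fell to 1.48 to 2.09 FPKM, against 4.26 to 4.31 FPKM, and the retinoic acid receptor gene RARB to 1.01 to 1.72 FPKM, against 2.72 to 3.11 FPKM. Further large falls were PLCXD3 (-1.61), a phospholipase-domain gene, IGFL4 (-1.42), FILIP1 (-1.34), whose product binds filamin, the zinc finger gene ZNF224 (-1.26), the calcium sensor NCALD (-1.25) and the homeobox gene HOXB13 (-1.23). The transcript ENSG00000261578, annotated as sense overlapping, fell by 1.54. ZNF224 had an adjusted p of 0.0339 and lost its call without any of 6 libraries.

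A pair of these 23 genes had 2 separate levels that did not follow the groups alone. AIDA, an inhibitor of JNK signalling known from zebrafish, had 24, 14.3, 21.3 and 16.7 FPKM in eATP 6 h libraries, against 5.49, 4.73, 4.42 and 4.31 FPKM in controls (log2 fold change 2.04 ± 0.47, edgeR adjusted p = 0.0185). At 2 hours of eATP, 3 libraries had 19.8 to 21.2 FPKM and replicate 1 had 5.02 FPKM, and 1 TGF-β 2 h library had 11.9 FPKM. The AIDA call was lost without any of 4 libraries (control replicates 2, 3 or 4, or eATP 6 h replicate 1; highest adjusted p = 0.0599). BROX, which overlaps AIDA on the opposite strand, had 9.82 to 10.5 FPKM with eATP at 6 hours and 11.2 to 12.4 FPKM in controls. NIPSNAP1, a mitochondrial protein gene, had 8.46, 8.53, 8.15 and 7.45 FPKM with eATP, against 33.9, 32.4, 10.5 and 32.2 FPKM in controls (-1.71 ± 0.375, edgeR adjusted p = 0.0134). THOC5, which overlaps it on the same strand, had 5.86 to 6.1 FPKM with eATP, 6.26 FPKM in control replicate 3 and 4.69 to 4.85 FPKM in the other controls, so among controls it was higher where NIPSNAP1 was lower. The part of read assignment between overlapping genes in these values was not tested. Across the table, 358 of 12558 genes reaching 1 FPKM had libraries of 1 group at least 8-fold apart, and none of them was called by edgeR (21 had an unadjusted p under 0.05).

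**Figure D3:**
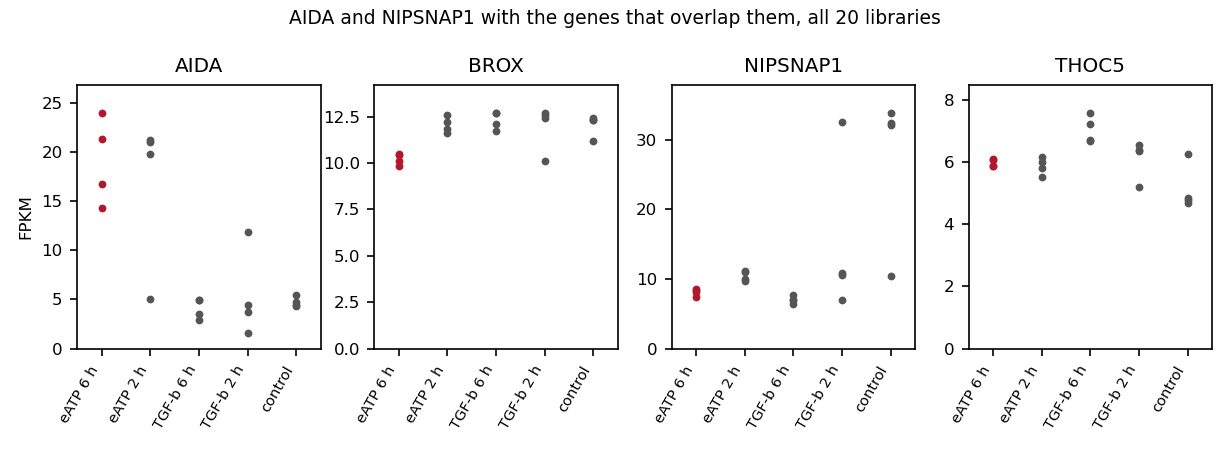
FPKM of AIDA, BROX, NIPSNAP1 and THOC5 in all 20 libraries, by group, eATP 6 h in red at the left and control at the right. AIDA is high in all 4 eATP 6 h and 3 eATP 2 h libraries, and NIPSNAP1 is high in 3 controls and 1 TGF-β 2 h library.

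Of the EGF receptor ligands and MAP kinase feedback genes, 7 of 28 rose and 2 fell, with a median log2 fold change of -0.08. Called members were 32.1% of this list, against 3.74% of all genes. All 4 called ligand genes were higher. AREG had 146.6, 137.1, 161.2 and 142.2 FPKM in eATP 6 h libraries, against 75, 72.4, 79.1 and 74.4 FPKM in controls (log2 fold change 0.99 ± 0.0743, edgeR adjusted p = 2.00e-07). Epiregulin (EREG) had 49.5 to 59.9 FPKM with eATP and 28.4 to 36.9 FPKM without it (0.76), HBEGF rose by 1.00, TGFA by 0.41 and the receptor EGFR itself by 0.87. Of the phosphatases that switch MAP kinases off, DUSP7 (0.60) and DUSP4 (0.23) rose and DUSP8 fell by 0.48, and the receptor ERBB3 fell by 0.51. Calls were lost without any of 7 libraries for DUSP8, 6 for DUSP4 and TGFA, and 5 for ERBB3. In the AP-1 and immediate early list 1 of 27 rose and 3 fell (14.8% called). FOSL1, the Fos family member of late AP-1, had 23.6, 19.9, 21.2 and 23.2 FPKM with eATP, against 8.42, 11.8, 7.82 and 9.17 FPKM in controls (1.27 ± 0.131, edgeR adjusted p = 9.47e-06). FOS had 8.46 to 11.2 FPKM with eATP, against 19.1 to 24.1 FPKM (-1.02), and EGR1 had 9.28 to 13.2 FPKM, against 19.5 to 28.5 FPKM (-1.08). Both groups of libraries were fully apart in these 3 genes. CCN2, a matricellular protein and YAP target, fell by 0.56.

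Of the 11217 tested genes with a promoter entry, 488 (4.35%) held TGAGTCA or TGACTCA in these 250 bases, on either strand. Among the higher genes it was 35 of 300 (11.7%), and among the lower genes 8 of 193 (4.15%). The CRE stood in 3.42% of all these genes, in 3% of the higher and in 3.63% of the lower. The EGR site, GCGTGGGCG or its reverse complement CGCCCACGC, stood in 1.52% of all, in 1% of the higher and in none of the 193 lower genes. These shares are counts of letters, with no test. Besides the 3 printed genes, EGFR, AMPD3, ISG20 and MUC13 were named risers with an AP-1 match, and VAV3, which fell by 1.08, had one too. Most named risers with a promoter entry had no AP-1 match, among them the metalloproteinase gene MMP10, HBEGF, EREG, BIRC3 and DKK1.

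Of integrins, laminins and their partners, 7 of 34 rose and none fell (11 had an unadjusted p under 0.05), with a median of 0.12. The called share was 20.6%, against 3.74% of all genes, of which 2482 of 17605 had an unadjusted p under 0.05. Both laminin genes whose promoters are printed above were among those that rose. LAMB3 had 11 to 12.3 FPKM with eATP and 6.27 to 7.34 FPKM without it (0.77, edgeR adjusted p = 7.00e-05). LAMA3 had 1.52 to 2.16 FPKM, against 0.842 to 1.29 FPKM (0.77, edgeR adjusted p = 0.0451), and lost its call without any of 7 libraries. SDC4 (0.57), CD9 (0.50), ITGA5 (0.49) and ITGA3 (0.43) also rose. The list of mesenchymal and matrix genes, which shares laminin genes, had 5 of 33 higher and 3 lower (24.2% called), with a median of 0.15. LAMA3, LAMB3, ITGA5 and LOXL2 (0.31) were among those that rose. LOXL2 lost its call in each of the 8 fits that left out 1 library. Those that fell were COL1A1 (-0.68), TAGLN (-0.66), a smooth muscle actin-binding protein, and the cadherin CDH4 (-0.61). TAGLN lost its call without any of 6 libraries and CDH4 without any of 4. Vimentin (VIM) had 147.9 to 187.5 FPKM with eATP and 134.1 to 153.5 FPKM in controls, which overlap (0.21, edgeR adjusted p = 0.384).

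No EMT transcription factor gene passed edgeR's test, of 15 measured (median log2 fold change 0.20), where 3.74% of all genes were called. At that share a list of 15 could well hold none. An unadjusted p under 0.05 was reached by 2 of them, against 2482 of the 17605 genes tested, and DESeq2 called 1. SNAI1 had 0.449 to 0.817 FPKM with eATP and 0.32 to 0.586 FPKM in controls (0.53 ± 0.243, edgeR adjusted p = 0.321), and SNAI2 had 0.199 to 0.334 and 0.097 to 0.323 FPKM (adjusted p = 0.471). ETS1 came nearest, with 7.23 to 8.7 FPKM with eATP and 4.86 to 6.41 FPKM in controls (0.53, edgeR adjusted p = 0.0533). Of 30 epithelial junction genes, 1 rose and 1 fell (6.67%, not far from the 3.74% of all genes). They were the junctional adhesion gene F11R, by 0.30, and TJP3, a tight junction scaffold, by -0.90 (edgeR adjusted p = 0.0319, lost without any of 7 libraries). CDH1, which encodes E-cadherin, averaged 5.89 FPKM with eATP and 10.4 FPKM without it (-0.79 ± 0.444), and this difference did not pass the test (edgeR adjusted p = 0.471). YAP targets and actin genes gave 4 higher and 1 lower of 30 (16.7% called). The receptor kinase AXL led them, with 31 to 34.9 FPKM with eATP and 19.9 to 21.4 FPKM in controls (0.72).

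Inflammatory genes had the highest median of the 37 lists that were not drawn from the paper. Of 41 chemokine, cytokine and NF-κB genes, 9 rose and none fell, with a median log2 fold change of 0.34, and 35 of the 41 values were above 0. The called share was 22%, against 3.74% of all genes, and over all genes 8697 of 17605 values were above 0. IL1A had 0.981, 0.608, 0.54 and 0.756 FPKM in eATP 6 h libraries, against 0.377, 0.42, 0.278 and 0.31 FPKM in controls (1.08 ± 0.238, edgeR adjusted p = 0.0141). Its call was lost without control replicate 3 or eATP 6 h replicate 1 (adjusted p up to 0.0601) and with only the compared groups in the fit. CSF2, a myeloid growth factor, had 6.49 to 7.64 FPKM with eATP and 2.63 to 4.7 FPKM without it (1.02). SOCS3, a feedback inhibitor of cytokine receptors, had 13 to 14.2 FPKM, against 7.79 to 8.29 FPKM (0.77). PTGS2, which makes prostaglandins, rose by 0.67, ICAM1 by 0.63, CXCL8 by 0.59, IL11 by 0.57 and NFKB2 by 0.52. IL6 had 0.908 to 1.15 FPKM with eATP and 0.555 to 0.884 FPKM in controls (edgeR adjusted p = 0.11), and TNF and NFKB1 did not pass either (adjusted p = 0.834 and 0.853). Among interferon-stimulated genes 2 rose and 2 fell of 35 (11.4% called). The exonuclease gene ISG20 rose by 0.60 (edgeR adjusted p = 0.0484) and OAS1 by 0.42, and IFI44 fell by 0.62. The ISG20 call was lost without any of 7 libraries, that of OAS1 without any of 6 and that of IFI44 without any of 8.

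Of 20 measured genes of ATP signalling and ATP or adenosine handling, 2 rose (10%, against 3.74% of all genes called in either direction) and none fell. P2RY2, the receptor for ATP and UTP, had 4.2, 3.6, 3.56 and 4 FPKM in eATP 6 h libraries, against 2.33, 2.78, 2.45 and 3.07 FPKM in controls (0.56 ± 0.136, edgeR adjusted p = 0.0261), and lost its call without any of 5 libraries. PANX1, a channel through which cells release ATP, rose by 0.41. An unadjusted p under 0.05 was reached by 7 of the 20, against 2482 of the 17605 genes tested. Among connexin, pannexin and ion transport genes 9 of 34 rose and none fell (26.5% called, median 0.28). They included the chloride channel ANO1 (1.05), the stanniocalcin STC1 (1.32), LRRC38 (1.21), the plasma membrane calcium pump ATP2B4 (0.73), LRRC8C (0.67) and the potassium channel KCNN4 (0.51). KCNN4 lost its call without any of 7 libraries and ATP2B4 without any of 6, and LRRC38 and ANO1 lost theirs when only the compared groups were in the fit. Of 21 cAMP and CREB targets (19% called) 2 rose, AREG and AKAP12 (0.70), and 2 phosphodiesterase genes fell, PDE7B (-0.92) and PDE3A (-0.69). The PDE3A call was lost without any of 6 libraries (adjusted p up to 0.0783) and the AKAP12 call without either of 2 (up to 0.0619).

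Most called members of the growth factor lists rose. The share called was 21.2% in the TGF-β and BMP list and 18.8% in the IGF and insulin list. It was 11.1% for WNT and Notch and 12.5% for axon guidance genes, against 3.74% of all genes. In the TGF-β feedback and BMP list 7 of 33 rose and none fell (median 0.15), with the BMP antagonist GREM1 (1.33), BMP6 (1.30) and BMP2 (0.64), and the ubiquitin ligase SMURF2 (0.66). BMP6 had 10.2 to 11.7 FPKM with eATP and 4.35 to 5.11 FPKM in controls. SMAD7, the inhibitory SMAD, had 2.45 to 3.31 FPKM with eATP and 3.07 to 3.88 FPKM without it (edgeR adjusted p = 0.797). Of the WNT and Notch genes 3 of 36 rose and 1 fell. DKK1, a secreted WNT inhibitor, had 421.8, 413.5, 410.4 and 294.4 FPKM with eATP, against 211.0, 203.5, 221.8 and 196.6 FPKM (0.91 ± 0.119, edgeR adjusted p = 0.000126), WNT9A rose by 0.95 and WNT7B by 0.41, and the receptor FZD8 fell by 0.31. Axon guidance genes had 4 of 32 higher, led by SEMA7A (1.76) at under 1 FPKM in both groups. In the IGF and insulin list 4 of 32 rose and 2 fell. IGFBP1, a secreted IGF-binding protein, had 17 to 19.8 FPKM with eATP and 5.42 to 7.31 FPKM without it (1.51), FOXO1 rose by 0.72, and the kinase SGK2 (-0.98) and the subunit PIK3R3 (-0.89) fell.

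The share of members called varied widely among metabolic, stress and tissue lists, which were chosen with earlier results known. It was 21.4% for cholesterol synthesis, 20% for gastric and mucus genes, 15.6% for hepatocyte and enterocyte genes, 12.1% for the ATF4 list and 2.33% for oxidative phosphorylation, beside 3.74% of all genes. Of 28 cholesterol synthesis genes 5 rose (among them HMGCS1 0.71, MSMO1 0.38, SQLE 0.37 and DHCR7 0.36) and the sterol exporter ABCG1 fell by 0.65, with a median of 0.15. HMGCS1 (adjusted p = 0.0455) lost its call without any of 7 libraries, DHCR7 without any of 6 and SQLE without 1, and ABCG1 when only the compared groups were in the fit. Of 41 glycolysis and hypoxia genes 3 rose, PFKFB4 (1.00), NDRG1 (0.74) and PFKP (0.33), and the glucose transporter SLC2A1 fell by 0.25. SLC2A1 (adjusted p = 0.0434) lost its call in each of the 8 fits that left out 1 library, and PFKP in 2 of them. In oxidative phosphorylation 1 of 43 rose, NDUFA12, with 30.7, 31.9 and 32.9 FPKM in 3 eATP libraries and 15.2 FPKM in replicate 4, against 11.8 to 15.6 FPKM in controls. Among NRF2 targets 2 of 31 fell and none rose (6.45% called). Only 3 of the 31 values were above 0, against 8697 of 17605 over all genes. HMOX1, heme oxygenase, fell to 30.3 to 35.7 FPKM, against 50.3 to 59.4 FPKM in controls (-0.72 ± 0.1, edgeR adjusted p = 0.000245), and the cystine transporter SLC7A11 fell by 0.73, a call lost without eATP 6 h replicate 3. The ATF4 list had 1 higher and 3 lower of 33, heat shock genes 3 lower of 26, p53 targets 1 lower of 28 (GDF15, -0.69) and clock genes 2 lower of 17 (DBP -1.29, PER2 -0.76). Purine and pyrimidine synthesis had 2 of 34 higher (AMPD3 0.92, PNP 0.33), lipid genes 1 of 31 (LIPG), nutrient carriers 1 of 27 (SLC25A37), and gastric and mucus genes 3 of 15 (GKN2, TFF1 1.08, MUC13 0.55). The called share was 11.8% for clock, 11.5% for heat shock, 9.76% for glycolysis and hypoxia and 5.88% for purine and pyrimidine genes. For nutrient carriers (3.7%), p53 targets (3.57%) and lipid genes (3.23%) it was near the 3.74% of all genes. Hepatocyte and enterocyte genes, some of which A549 cells make, had the lowest median, -0.17, with 2 higher and 3 lower of 32. In these lists the calls of PNP (without any of 5 libraries), SLC25A37 (2), DBP (1) and TFF1 (1) were also lost. So were those of HSPA1L (7) and HSP90AB1 (5) among heat shock genes. In the ATF4 list the falls of NUPR1 (8), ASNS (6) and PSPH (5) were lost. In the hepatocyte and enterocyte list ANKS4B (8), SERPINA1 (7), VIL1 (6) and TM4SF4 (6) lost their calls, and BAAT kept its call. No member was called by edgeR among 25 ER chaperone genes (4 with an unadjusted p under 0.05), 13 mitochondrially encoded genes (1), 42 cytosolic ribosomal protein genes (0), 46 G2/M genes (1) or 16 metallothionein and zinc genes (1). DESeq2 called 1 ER chaperone gene and none of the others. Of the 37 genes measured among those that the paper names, 14 rose and 4 fell, a list picked by the study on these same libraries.

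**Figure D4:**
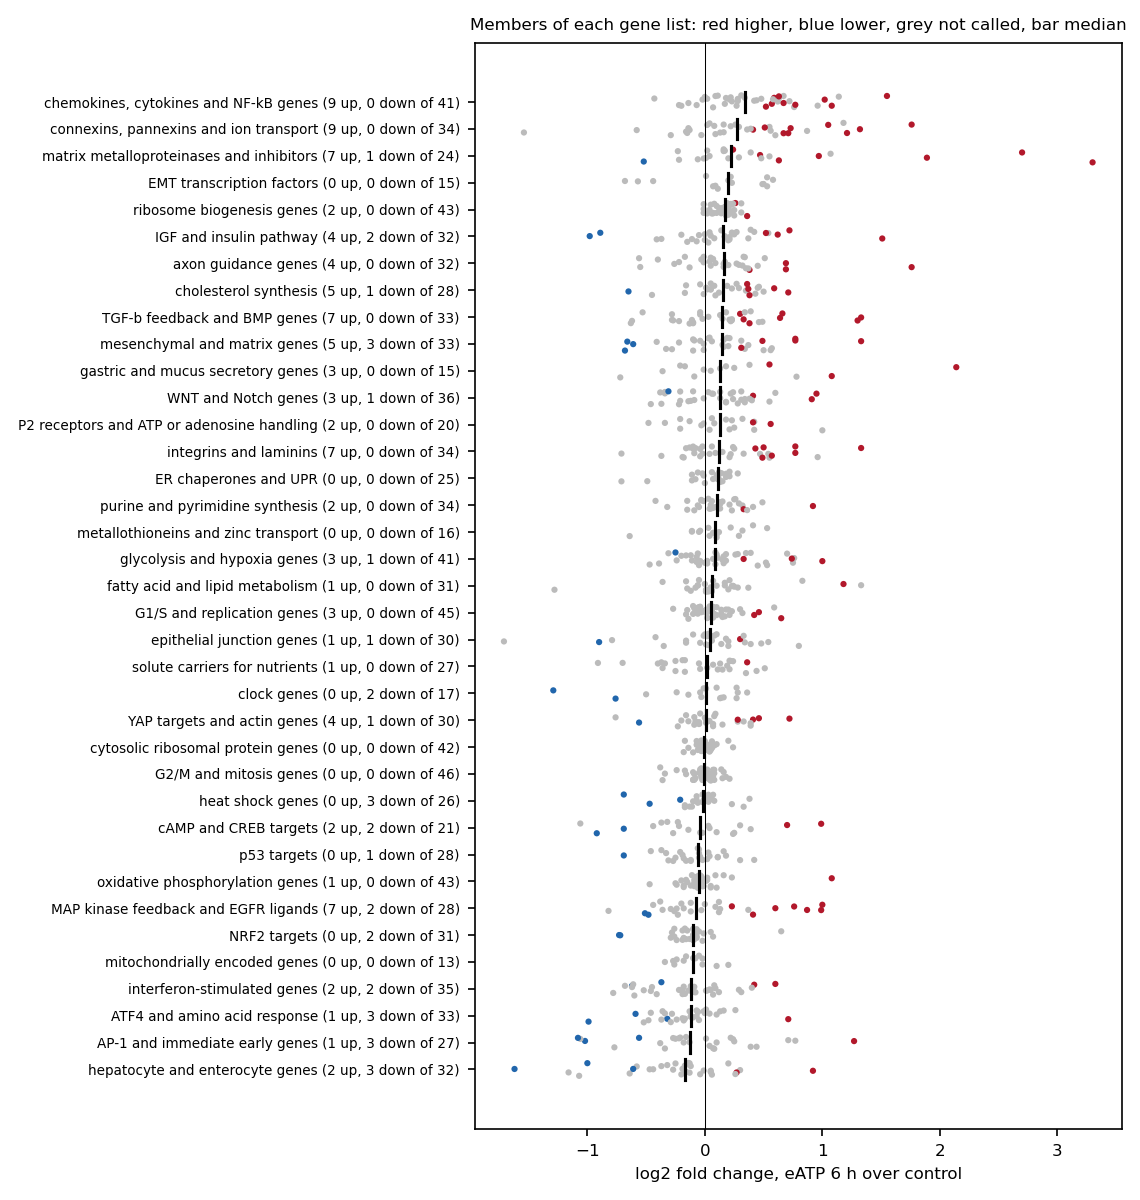
Log2 fold change of eATP 6 h over control (horizontal axis) for every tested member of 37 gene lists, ordered by their median (black bar). Red members were called higher, blue lower and grey not called, and the inflammatory list has the highest median, 0.34, and the hepatocyte and enterocyte list the lowest, -0.17.

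The 6 h level was then compared directly with the 2 h level of eATP, where 1240 genes were higher at 6 hours (7.04%) and 1358 lower (7.71%) by the same edgeR test. This comparison uses the same eATP 6 h libraries as that with the controls, so the 2 are not independent. The series has no untreated cells labelled for either time, so longer eATP cannot be told apart from time in culture or handling. Some rises were late. SPNS2 had 0.284 ± 0.0774 FPKM at 2 hours (SD, n = 4), no higher than the control mean of 0.379, and its log2 difference between 6 and 2 hours was 3.33 (edgeR adjusted p = 1.30e-07). FGFBP1 had 29.5 ± 2.16 FPKM at 2 hours, and 6 h was higher by 1.38. MARCHF4 (1.40), GKN2 (1.73), KRT6A (1.30), IGFL1 (1.20) and SOX8 (0.92) were also higher at 6 than at 2 hours. MMP1, with 2.03 ± 0.223 FPKM at 2 hours, and MMP10, with 2.12 ± 0.161 FPKM, stood near the 6 h levels (edgeR adjusted p = 0.799 and 0.992).

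Other genes stood further from controls at 2 hours than at 6. STC1 had 4.81 ± 0.568 FPKM in controls, 51.1 ± 2.66 FPKM at 2 hours and 11.8 ± 1.16 FPKM at 6 hours (SD, n = 4 each), and 6 h was lower than 2 h by a log2 difference of -2.12 (edgeR adjusted p = 1.44e-08). FOSL1 had 9.29 ± 1.73 FPKM in controls, 50.3 ± 1.57 FPKM at 2 hours and 22 ± 1.72 FPKM at 6 hours. For EGR1 the values were 23.5 ± 3.96 FPKM in controls, 0.893 ± 0.0833 FPKM at 2 hours and 10.9 ± 1.69 FPKM at 6 hours, and FOS had 21.2 ± 2.23, 1.15 ± 0.289 and 10.3 ± 1.25 FPKM. Both were higher at 6 than at 2 hours, by 3.60 and 3.14, and both were still below controls. CCN2 and FILIP1 crossed the control level. CCN2 had 16.2 ± 0.772 FPKM in controls, 60.9 ± 2.16 FPKM at 2 hours and 10.8 ± 0.788 FPKM at 6 hours, and FILIP1 had 3.88 ± 0.525, 5.99 ± 0.24 and 1.49 ± 0.169 FPKM. ABCG1 was likewise above controls at 2 hours (log2 fold change 1.78) and below them at 6 hours.

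**Figure D5:**
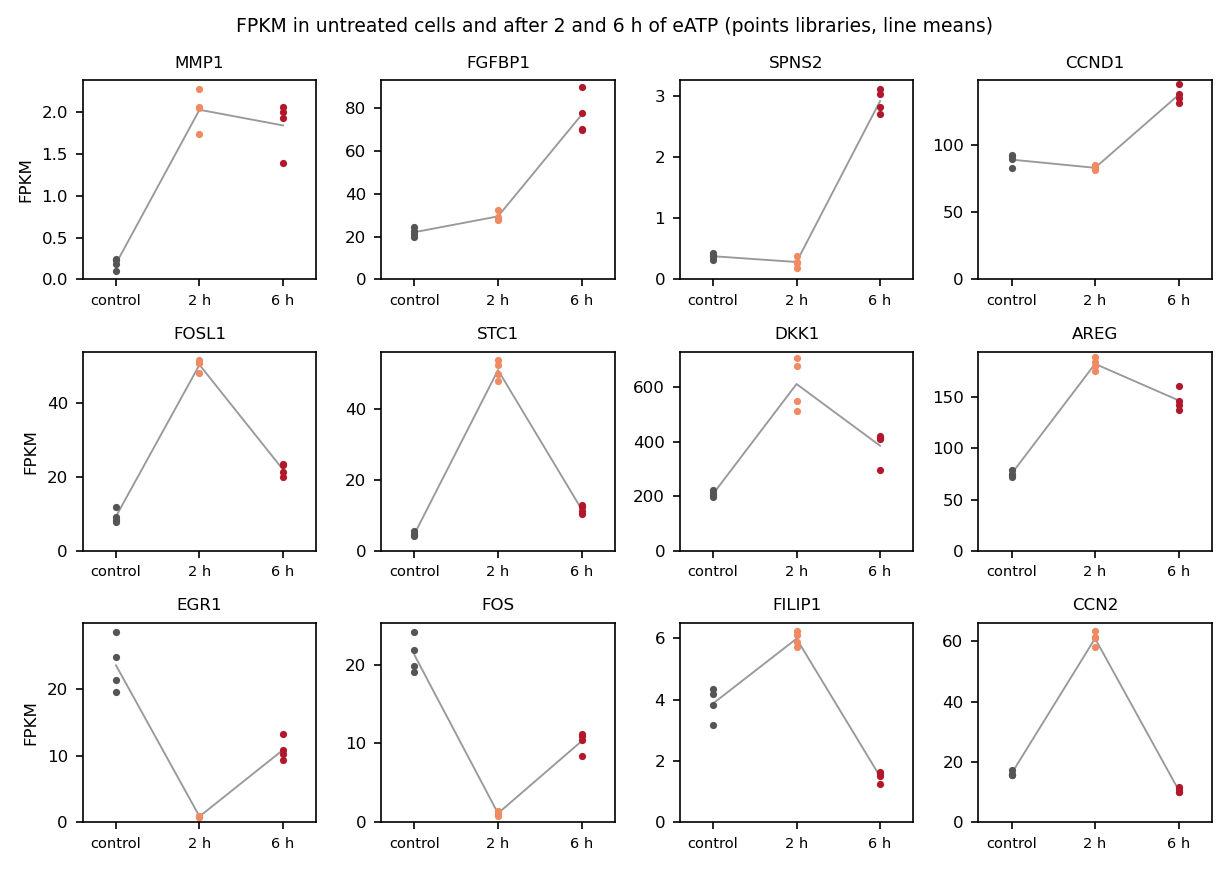
FPKM (vertical axes, from 0) of 12 genes in untreated cells and after 2 and 6 hours of eATP, 4 libraries per group as points and means joined by lines. SPNS2, FGFBP1 and CCND1 are highest at 6 hours, STC1, FOSL1, DKK1 and CCN2 at 2 hours, and EGR1 and FOS are lowest at 2 hours.

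In the direct comparison of 6 with 2 hours, where 7.71% of all genes were lower and 7.04% higher, 15 of 21 cAMP and CREB targets, 16 of 28 MAP kinase feedback and EGF receptor ligand genes, 11 of 27 AP-1 and immediate early genes and 13 of 41 inflammatory genes were lower. In the same lists 0, 1, 3 and 2 genes were higher. Cell cycle lists stood the other way, with 22 of 45 G1/S and replication genes and 22 of 46 G2/M genes higher at 6 than at 2 hours, and 17 of 43 ribosome biogenesis genes higher. In these 1, 0 and 1 genes were lower. Against the shared controls, 18 of the G1/S and 21 of the G2/M genes were lower at 2 hours (4.31% of all genes were). None of either list was lower at 6 hours, where 1.52% of all genes were, so lists of this size could well hold none. Of the inflammatory genes 23 were above the same controls at 2 hours, where 5.73% of all genes were. At 6 hours 3 of the 45 G1/S genes were above controls (6.67%), where 2.23% of all genes were. CCND1, cyclin D1, had 131.4 to 145.7 FPKM with eATP and 83.4 to 92.8 FPKM in controls (0.65 ± 0.061, edgeR adjusted p = 2.43e-06), CCNE1 rose by 0.42 and CDK6 by 0.46. The CDK6 call was lost without any of 6 libraries, and both were lost with only the compared groups in the fit. TOP2A, a mitotic marker, had 104.8 to 136.3 FPKM with eATP and 103.0 to 129.4 FPKM in controls. Of ribosome biogenesis genes 2 of 43 passed against controls, LYAR (0.36) and NOP2 (0.26), which at 4.65% is near the 3.74% of all genes. Of the 43 values 40 were above 0 (median 0.17), against 8697 of 17605 over all genes. NOP2 lost its call without any of 6 libraries.

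Against TGF-β given for the same 6 hours, 1809 genes were higher with eATP (10.3%) and 1671 lower (9.49%). FGFBP1 (log2 difference 4.16), SPNS2 (3.60), AREG (3.21), IGFBP1 (3.20), EREG (2.98), GKN2 (2.95) and BIRC3 (2.66) were higher with eATP. FGFBP1 had 77 ± 9.32 FPKM with eATP, against 4.17 ± 0.695 FPKM with TGF-β (SD, n = 4 each, edgeR adjusted p = 3.30e-13). Among named genes that were lower with eATP, the log2 difference was -4.72 for COL1A1, -4.11 for PDGFB, -3.69 for TIMP3, -3.62 for CCN2, -3.12 for SEMA7A, -2.67 for SNAI1 and -2.44 for SNAI2. Matrix and BMP genes stood on both sides, since LAMA3 (1.21) and GREM1 (0.96) were higher with eATP. MMP1, with 1.84 ± 0.308 FPKM with eATP and 2.48 ± 0.24 FPKM with TGF-β, and SOX8, with 1.27 ± 0.0578 and 1.25 ± 0.278 FPKM, did not pass the test of this difference (edgeR adjusted p = 0.197 and 0.962). P2RY2 was lower with eATP than with TGF-β, by -1.50 (edgeR adjusted p = 1.86e-07).

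BLOC1S6, a subunit of a complex for lysosome-related organelles that the study followed up, had 2.77, 7.18, 5.91 and 3.43 FPKM in eATP 6 h libraries, against 2, 1.22, 1.7 and 3.06 FPKM in controls. The groups overlapped, and the log2 fold change was 1.30 ± 0.34 (edgeR adjusted p = 0.0398). The call was lost without any of 5 of the 8 libraries (adjusted p up to 0.142). The paper also reported more BLOC1S6 protein with ATP, and less proliferation and invasion after its knockdown, which these libraries do not measure. Other genes that the paper names had uneven libraries too. The read-through locus ATP6V1G2-DDX39B had 0.702 to 11 FPKM with eATP and 0.503 to 1.31 FPKM in controls (adjusted p = 0.497). DAG1 had 28.2 FPKM in control replicate 2 and 1.04 to 3.37 FPKM in the other controls, beside 1.21 to 3.64 FPKM with eATP, and its log2 fold change of -1.71 became 0.08 without that library. VAV3, ANKS4B and SHH fell by 1.08, 1.00 and 0.73 on the log2 scale. ANKS4B lost its call in each of the 8 fits that left out 1 library, and SHH in 6 of them.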

How the data were processed

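RNA of 20 A549 libraries, 4 in each of 5 groups, was sequenced from polyA RNA with a stranded kit. The authors deposited read counts per gene, not normalized, and FPKM values, normalized for length and library. HISAT2, StringTie and edgeR appear in the submitters' processing notes, with no version. For the authors' genome build, nothing was found (not given in the sources used here). Labels number 4 replicates where the paper gives 3, and all 4 were used. Groups came from sample titles.

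Counts of the 17605 genes were normalized with TMM, and edgeR 4.0.16 under R 4.3.3 ran the quasi-likelihood test with a mean for each of 5 groups (15 residual degrees of freedom), adjusted over all genes. The script was tested on simulated data. Fold changes come from counts, levels from FPKM. The SE of a log2 fold change was taken as its size divided by the square root of the test's F value. Positions and overlaps came from GENCODE release 29 (GRCh38), in which 58552 gene identifiers were found. Promoters of 11217 tested genes were matched in RefSeq; for MMP1, MMP3, SOX8, FOSL1, SPNS2, TFF1 and KRT6A none was used. A promoter was counted once per gene if any of its starts matched, and the start with most matches was printed.

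Named genes were the 12 largest rises and 12 largest falls of the called genes whose higher group averaged 1 FPKM or more and whose groups did not overlap, up to 4 called members of each of 38 lists with the largest change (or 2 with the highest FPKM where none was called), and genes the paper names. Members given only by a fold change, and BROX, THOC5, CDH1, KRT8, CDH5 and TM4SF4, fall outside this rule and were added after their values were seen. Members and lists were chosen with earlier results of these data known. TGFB1 and PER1 were not analysed here, and 6 further genes that the rule picks, 1 of them a largest rise, are not reported here; list counts include them. Alternatives were other scalings, filters, thresholds and fits, DESeq2 1.42.0, limma 3.58.1 on log2(FPKM + 0.1) and log2(FPKM + 1), a replicate block, and fits that each left 1 library out. The fit without the deviating TGF-β 2 h library was chosen after seeing the data.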

Additional observations from a re-analysis of the deposited data

Results flagged for a closer look

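In 20 of 280 groups of 4 libraries looked at (140 named genes in eATP 6 h and in control), 1 library lay far from the other 3 by Dixon's criterion, which chance alone meets in about 1 in 20 groups. EREG had 49.5 FPKM in eATP 6 h replicate 3, against 58.7 to 59.9 FPKM in the other 3. DKK1 had 294.4 FPKM in eATP 6 h replicate 4, against 410.4 to 421.8 FPKM in the other 3. NDUFA12 had 15.2 FPKM in eATP 6 h replicate 4, against 30.7 to 32.9 FPKM in the other 3. MT-ATP8 had 4655 FPKM in eATP 6 h replicate 4, against 2561 to 2793 FPKM in the other 3. RPL19 had 880.7 FPKM in eATP 6 h replicate 3, against 698.5 to 711.1 FPKM in the other 3. SERPINA1 had 0.288 FPKM in eATP 6 h replicate 1, against 0.171 to 0.176 FPKM in the other 3. PIK3R3 had 0.675 FPKM in eATP 6 h replicate 2, against 0.501 to 0.523 FPKM in the other 3. MUC13 had 11.8 FPKM in eATP 6 h replicate 3, against 12.8 to 12.9 FPKM in the other 3. LINC01783 had 0.309 FPKM in eATP 6 h replicate 2, against 0.12 to 0.15 FPKM in the other 3. AGPAT3 had 2.26 FPKM in eATP 6 h replicate 1, against 0.724 to 0.887 FPKM in the other 3. Among the controls, 5 of the deviating values were in replicate 3. MMP10 had 0.786 FPKM in control replicate 4, against 0.507 to 0.529 FPKM in the other 3. BIRC3 had 13.4 FPKM in control replicate 3, against 20 to 20.9 FPKM in the other 3. NIPSNAP1 had 10.5 FPKM in control replicate 3, against 32.2 to 33.9 FPKM in the other 3. PLCXD3 had 0.9 FPKM in control replicate 3, against 1.44 to 1.54 FPKM in the other 3. SEMA7A had 0.206 FPKM in control replicate 1, against 0.251 to 0.254 FPKM in the other 3. MT-CO2 had 6022 FPKM in control replicate 4, against 4414 to 4473 FPKM in the other 3. SLC7A11 had 23.7 FPKM in control replicate 3, against 33.8 to 34.2 FPKM in the other 3. CDK6 had 5.77 FPKM in control replicate 3, against 7.43 to 7.71 FPKM in the other 3. DAG1 had 28.2 FPKM in control replicate 2, against 1.04 to 3.37 FPKM in the other 3. PDGFB had 1.51 FPKM in control replicate 4, against 1.85 to 1.9 FPKM in the other 3.

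Levels with eATP differed between 6 and 2 hours in 2598 genes by the direct edgeR test of the 2 times, and in 17 of 23 named large changes. With no untreated cells for each time, duration of eATP and time in culture or handling cannot be told apart here. Log2 differences of 6 minus 2 hours above 0 were SPNS2 3.33, SOX8 0.92, GKN2 1.73, KRT6A 1.30, FGFBP1 1.38, MARCHF4 1.40, IGFL1 1.20. Those below 0 were BAAT -0.83, PLCXD3 -1.38, ENSG00000261578 -0.65, IGFL4 -0.91, FILIP1 -2.01, ZNF224 -0.98, NCALD -1.61, RAP1GAP -1.07, HOXB13 -0.76, SLC40A1 -0.51. ZNF224 was nearest to the threshold (adjusted p = 0.0472).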

How the results depend on the processing

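Counts of called genes moved with the fit, and no gene called in the comparison with controls was called in the opposite direction by any alternative. At an adjusted p under 0.01, 186 genes were higher and 97 lower than in controls. With no filter on FPKM 164 were lower, DESeq2 called 616 higher and 463 lower, and 72 higher and 56 lower remained past a log2 fold change of 1 in size. Without TGF-β 2 h replicate 1 there were 618 and 439. Leaving out each library in turn gave 249 to 299 higher and 168 to 197 lower genes. The same threshold of 0.01 gave 673 higher and 792 lower genes against eATP 2 h and 1126 higher against TGF-β 6 h, and leave-outs gave 944 to 1030 and 1086 to 1133 against eATP 2 h and 1490 to 1732 and 1409 to 1596 against TGF-β 6 h. Of 110 called named genes, 75 kept their call without each library.

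Log2 fold changes changed sign only in uncalled genes. Over the fits with 1 library left out, MT-CO2 ranged from -0.17 to 0.10, TOP2A from -0.02 to 0.11, CCNB1 from -0.04 to 0.04, RPL19 from -0.14 to 0.03, DAG1 from -2.08 to 0.08 and PDGFB from -0.05 to 0.06. MT-CO2 had 0.10, 0.07 and 0.01 without control replicate 4 or eATP 6 h replicates 1 or 2. TOP2A had -0.02 and CCNB1 0.04 without control replicate 3, and -0.01 and 0.01 without eATP 6 h replicate 4. RPL19 had 0.03 without control replicate 3, and DAG1 0.08 without control replicate 2. PDGFB had -0.01 with upper quartile scaling, -0.00 with limma on log2(FPKM + 1), and -0.05 and -0.02 without control replicate 4 or eATP 6 h replicate 3. The cause was not tested.

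Same-numbered libraries of eATP 6 h and control deviated from their group means with correlations of -0.0322, 0.0805, 0.176 and 0.112. With the controls of other numbers, the same eATP libraries had at most 0.0371, 0.011, -0.0384 and 0.118. Replicates 2 and 3 thus stood above their other pairings and replicates 1 and 4 did not, so these values do not settle whether the numbers mark pairs. The main fit did not take them as pairs. With the replicate block 312 genes were higher and 211 lower. Genes under 1 FPKM were called least often, which limits what can be said of low transcripts.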
